A study of Drosophila melanogaster with 29 samples.

Results

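PEN2 and R4d neurons, both of the adult Drosophila central complex, were compared in low-cell RNA sequencing libraries, each made from a small pool of cells sorted by fluorescence. PEN2 neurons are columnar cells that link the protocerebral bridge, the ellipsoid body and the noduli, and R4d neurons are ring neurons of the ellipsoid body. The comparison takes every library column headed Sample 15 or Sample 16 in the table of the PEN2 driver SS02232 and every column headed Sample 17 in the table of the R4d driver SS00238. This gives 21 of the 29 low-cell libraries: 14 of PEN2 (8 of Sample 15 and 6 of Sample 16) and 7 of R4d. The other 8 are central brain RNA (CB), which took no part in the tests and is given only as a level beside them. The study's design text states 9 R4d replicates, of which those beyond 7 were not analysed here.

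The PEN2 libraries held 35 cells each from flies with the driver SS02232 and the nuclear reporter nls-tdTomato. The R4d libraries held 40 cells each from flies with the driver SS00238 and the same reporter. The CB libraries held 50 pg of RNA from brains without optic lobes, with no driver, reporter or sort named in the labels. All flies were females aged 3 to 5 days, and brains were pooled for dissociation. Each type is represented by a single driver line, so that a cell type and its line cannot be told apart. No label says that the libraries of a type came from separate dissections, and the p-values cover only how far these libraries vary, which may be technical variation.

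The central complex holds a ring-shaped circuit that tracks the heading of the fly. In that circuit, PEN neurons carry signals of turning from the bridge to the ellipsoid body, while ring neurons bring sensory and other inputs to it and are known as inhibitory GABA cells. In flies, acetylcholine is the main excitatory transmitter of central neurons and GABA the main inhibitory one. Glutamate can inhibit as well, through a chloride channel.

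The tables held counts of 17612 genes, besides 92 spike-ins and 9 transgenes. Gene counts were 399694 to 500622 in a PEN2 library, against 1001162 to 1154010 in an R4d library. Between 4725 and 5557 genes had a count in a PEN2 library, against 6206 to 6478 in an R4d library. Per spike-in count, the PEN2 libraries held 13.2 to 27.1 gene counts (median 18.1), against 63.9 to 100.3 (median 77.3) in the R4d libraries. Fewer captured cells and less RNA per cell cannot be told apart in these sums. Levels are therefore given as CPM, the counts of a gene scaled to a common total of gene counts per library, and describe composition. The libraries of R4d were also more alike. Pearson correlations of log2(CPM + 1) were taken across the 4887 genes tested below, a set chosen without the CB libraries. They were 0.53 to 0.59 between PEN2 libraries and 0.79 to 0.83 between R4d libraries. PEN2 libraries correlated with CB libraries at 0.55 to 0.62, and CB libraries with each other at 0.82 to 0.85. The reporter nls-tdTomato stood at 712 to 5190 CPM in PEN2 libraries, against 6214 to 10000.5 CPM in R4d libraries and 26.8 to 58.4 CPM in CB libraries. The transgene row myr-GFP-p10, which no label of these libraries names, held between 2537 and 10795 CPM in PEN2, between 7685 and 11247 CPM in R4d, and at most 90.1 CPM in CB.

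Of 4887 genes with enough counts to be tested with edgeR, 970 (19.8%) were called at an adjusted p under 0.05. Relative to R4d, 494 (10.1%) rose in PEN2 and 476 (9.74%) fell, and the median log2 fold change of all genes tested was -0.04. The counts of called genes in each list below are to be read beside these shares. In 196 genes (4.01%) every PEN2 library lay above every R4d library, and in 217 (4.44%) every R4d library lay above every PEN2 library. Scaled to spike-ins in place of TMM, which places the median gene 2.01 log2 units lower in PEN2, the split was 173 higher and 3410 lower. Smaller rises therefore describe composition. The fit uses a single estimate of the spread of each gene for both types, although the PEN2 libraries were less alike. With a variance per type (limma-voom) 593 genes were higher and 1467 lower in PEN2, so the even split depends on that choice. Within PEN2, Sample 16 against Sample 15 gave 17 called genes of 4153 (0.409%).

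**Figure D1:**
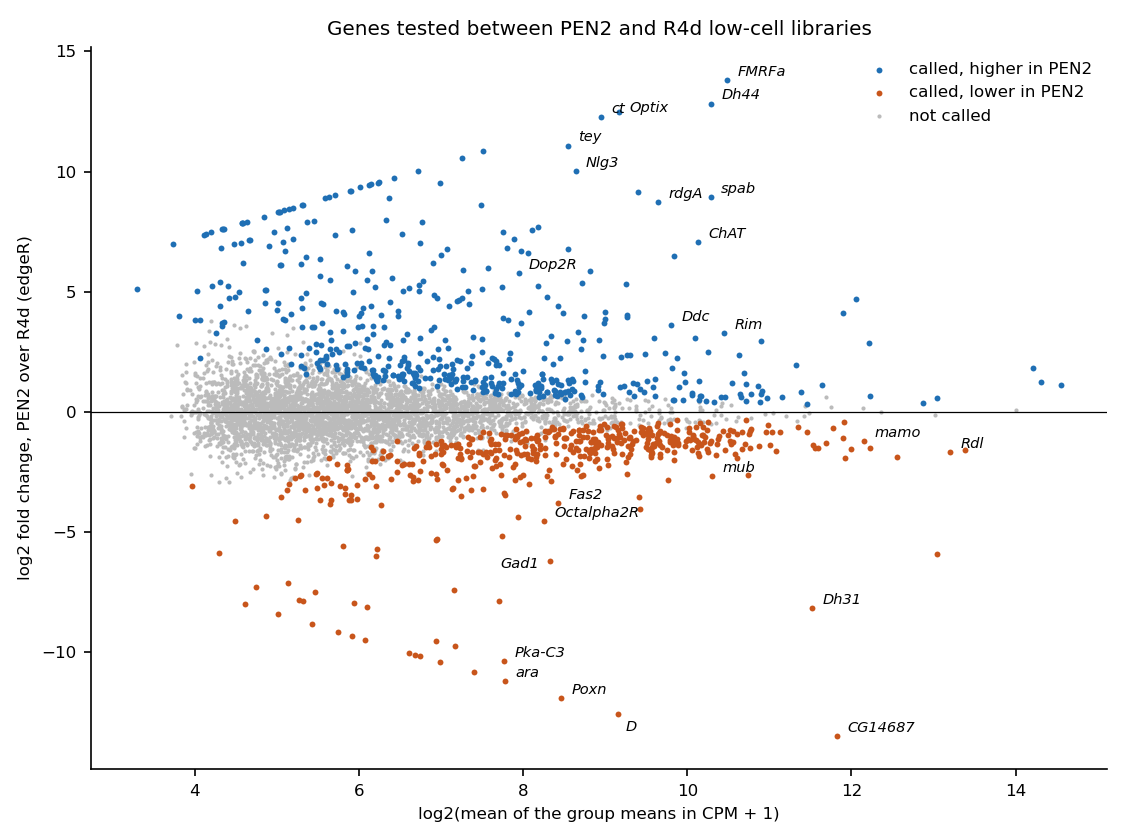
Log2 fold change of PEN2 over R4d for each of the 4887 genes tested (y axis) against the log2 of the mean CPM of both types plus 1 (x axis), with called genes in blue (higher in PEN2) and orange (lower in PEN2) and the others in grey. FMRFa and Dh44 lie at the top and CG14687 and D at the bottom, and the straight bands at the upper and lower edges are genes with 0 counts in every library of a type, whose fitted value depends on a prior count.

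The 5 markers the comparison was set up with, ChAT, Gad1, Optix, D and Poxn, separated the types without overlap. ChAT (FBgn0000303), which makes acetylcholine, stood at 1684, 2126 and 3069 CPM (lowest, median and highest library) in PEN2, against 0, 14.8 and 36.8 CPM in R4d. Every PEN2 library lay far above every R4d library, and the log2 fold change was 7.07 ± 0.44 (SE, adjusted p = 1.8e-13). VAChT, the vesicular transporter of acetylcholine, was higher in PEN2 by 7.03 ± 0.75 log2 units, at 211 ± 111 CPM in PEN2 and 1.25 ± 2.91 CPM in R4d (SD, n = 14 and 7). ChT, which takes choline back up, rose by 6.16 ± 1.00 log2 units, with 75.8 ± 58.4 CPM in PEN2 and 0.830 ± 2.20 CPM in R4d. All 3 genes of acetylcholine synthesis and release were thus higher in PEN2.

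Gad1, the enzyme that makes GABA, went the other way. It had 0, 0 and 67.7 CPM (lowest, median and highest) in PEN2, against 539, 637 and 695 CPM in R4d. Only 3 of the 14 PEN2 libraries held a Gad1 count, and the log2 fold change was -6.23 ± 0.75 (adjusted p = 1.1e-07). VGAT, which loads GABA into vesicles, was not called, with 47.6 ± 38.0 CPM in PEN2 and 136 ± 33 CPM in R4d and a log2 fold change of -1.62 ± 0.63 (adjusted p = 0.070). VGAT passed the threshold when CB libraries entered the fit (adjusted p = 0.014), when no filter on low counts was used (adjusted p = 0.042), with limma-voom (adjusted p = 5.2e-04) and with spike-in scaling (adjusted p = 1.1e-05). VGlut, the vesicular transporter of glutamate, averaged 0.347 CPM in PEN2 libraries and was at 0 in every R4d library, against 80.3 to 240.7 CPM in CB.

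Optix, a homeobox gene of eye development, had 866, 1151 and 1546 CPM in PEN2, against 0 in every R4d library, which makes it at least 2865-fold higher in PEN2 (a floor of 3 counts over the R4d libraries, here as for every such bound a matter of counting error only). D (Dichaete, a Sox transcription factor) had 0 in every PEN2 library, against 852, 1188 and 1391 CPM in R4d, at least 2384-fold lower in PEN2. Poxn, a paired box transcription factor, likewise had 0 in every PEN2 library, against 472, 685 and 1005 CPM in R4d. The PEN2 level was at least 1485-fold lower for Poxn. These genes are markers the comparison was set up with, so their direction is a check of the labels. In a wider list of ring neuron genes from earlier work, 9 were tested. Of these, 5 fell in PEN2, among them Gad1, D and Poxn, and 3 rose (Dop1R1, mbl and Lim1). With spike-in scaling 0 rose and 7 fell.

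**Figure D2:**
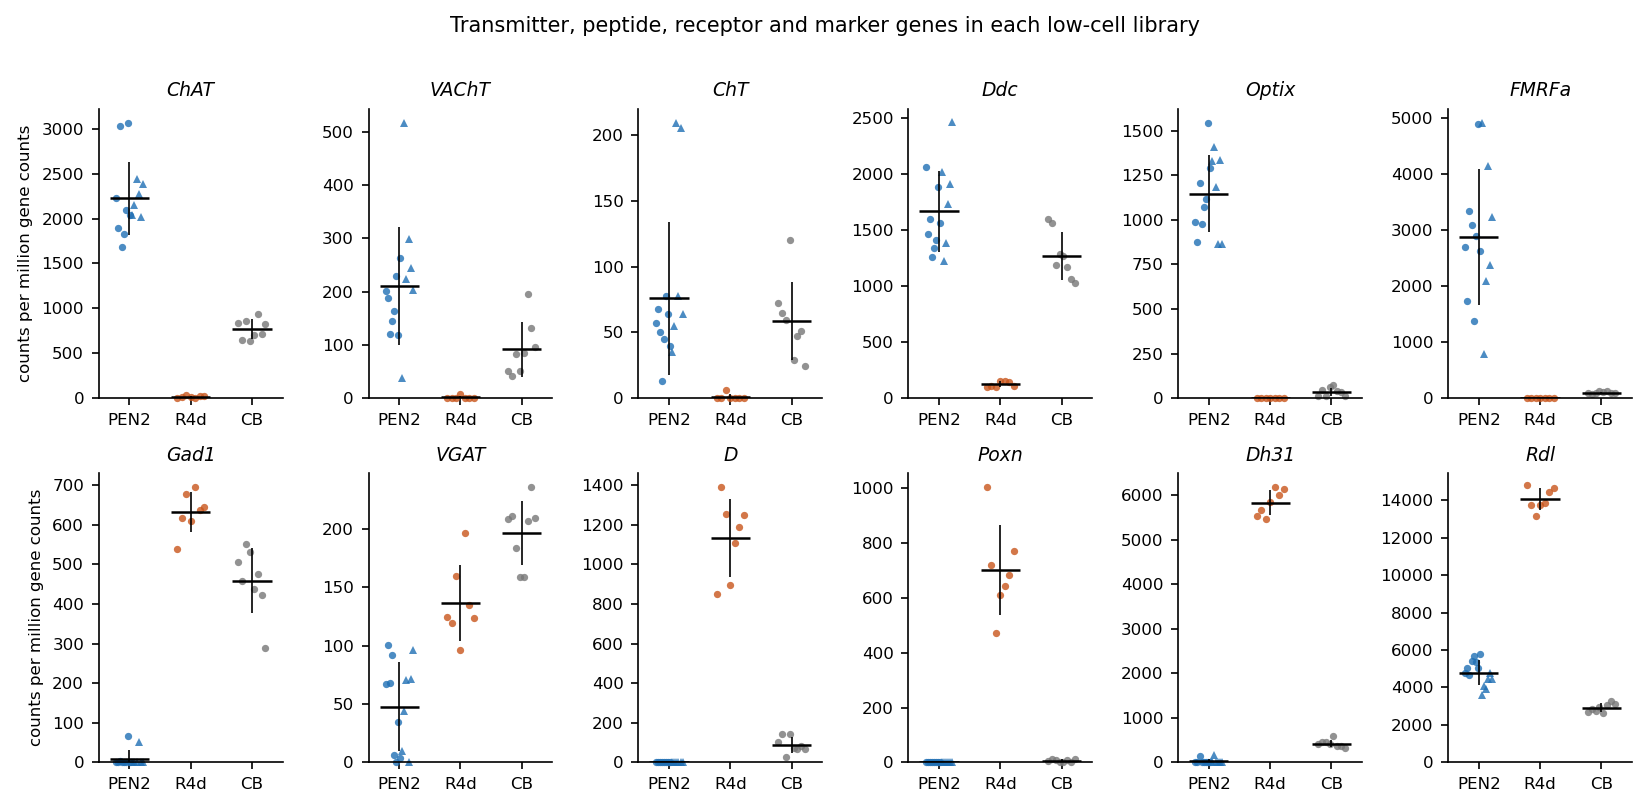
CPM (y axis, from 0) of 12 genes in each PEN2, R4d and CB library, with PEN2 libraries of Sample 15 as circles and of Sample 16 as triangles, lines at the mean and bars of 1 SD. ChAT, VAChT, ChT, Ddc, Optix and FMRFa stand higher in PEN2, Gad1, D, Poxn, Dh31 and Rdl stand higher in R4d, and VGAT overlaps between the types.

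Of 9 genes of monoamine synthesis and transport, 2 had enough counts to be tested. Ddc, the decarboxylase that makes dopamine and serotonin, had 1220, 1582 and 2462 CPM in PEN2, against 100.4, 112 and 155 CPM in R4d. The types did not overlap, and Ddc rose by 3.62 ± 0.18 log2 units (adjusted p = 6.8e-16). Other genes of dopamine and serotonin neurons were low in both types: ple, which makes the precursor of dopamine, averaged 1.57 CPM in PEN2 and 0.143 CPM in R4d, Vmat at most 4.18 CPM in PEN2 and 0 in R4d, and Trh at 0 in every library of both. The dopamine transporter DAT was at most 55.2 CPM in PEN2 and at 0 in R4d. Tbh, which makes octopamine, fell by 1.81 ± 0.55 log2 units (adjusted p = 0.018), at 38.8 ± 47.2 CPM in PEN2 and 125 ± 18 CPM in R4d. The call of Tbh was lost without the libraries of Sample 15 (log2 fold change -1.17, adjusted p = 0.19). It was also lost when counts were summed per sample entry (-1.65, adjusted p = 0.25). Here as elsewhere, summing leaves 2 PEN2 samples against 1 R4d sample, which is assumed to vary like PEN2, so that a lost call there does not show a smaller change.

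The types differed in the neuropeptide precursors they held. FMRFa, the precursor of the FMRFamide peptides, had 788, 2783 and 4911 CPM in PEN2, against 0 in every R4d library, and was at least 7147-fold higher in PEN2. Dh44, the precursor of a diuretic hormone related to vertebrate corticotropin-releasing factor, had 1545, 2194 and 3793 CPM in PEN2, against 0, 0 and 0.867 CPM in R4d. Its log2 fold change was 12.83 ± 0.39 (adjusted p = 4.7e-21). The third was spab, listed among the peptide precursors, with 926, 2188 and 4403 CPM in PEN2, against 0, 2.60 and 15.7 CPM in R4d (log2 fold change 8.93 ± 0.55, adjusted p = 1.4e-13).

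Dh31, the precursor of a diuretic hormone related to calcitonin gene-related peptide, had 0, 0 and 165 CPM in PEN2, against 5455, 5848 and 6182 CPM in R4d. It was detected in 4 of the 14 PEN2 libraries, only 2 of which exceeded 100 CPM (136 and 165), and in all 7 R4d libraries. The log2 fold change was -8.18 ± 0.81 (adjusted p = 2.4e-09). With DESeq2, Dh31 changed by -4.98 log2 units and was not called (adjusted p = 0.075). Allatostatin C (AstC) was uneven in PEN2. It was at 0 in 7 PEN2 libraries and between 2.23 and 2052 CPM in the other 7, with the highest value in library 6 of Sample 16, against 146 to 212 CPM in R4d. AstC was not called (adjusted p = 0.99), but without the libraries of Sample 16 it was called lower in PEN2, by -3.58 log2 units (adjusted p = 0.0092). Of 43 precursors measured, 7 were tested, of which 3 rose and 1 fell (median log2 fold change 0.04). Of the 43, 19 were at 0 in every PEN2 library and 26 in every R4d library, Pdf and NPF in both.

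Of 9 nicotinic acetylcholine receptor subunits tested, 2 rose and 2 fell in PEN2 (median log2 fold change -0.24), and with spike-in scaling 1 rose and 8 fell. nAChRalpha3 had 125 ± 70 CPM in PEN2 and 5.73 ± 10.1 CPM in R4d and rose by 4.32 ± 0.92 log2 units (adjusted p = 6.2e-04). nAChRalpha7 had 208 ± 120 CPM in PEN2 and 742 ± 180 CPM in R4d and fell by 1.95 ± 0.32 log2 units (adjusted p = 2.0e-05). The muscarinic receptor mAChR-A was not called, at 455 ± 146 CPM in PEN2 and 522 ± 130 CPM in R4d (adjusted p = 0.36).

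Rdl, the subunit that forms the main GABA-gated chloride channel of the fly brain, had 3590, 4765 and 5801 CPM in PEN2, against 13161, 13872 and 14830 CPM in R4d. Every R4d library lay above every PEN2 library, and Rdl fell by 1.67 ± 0.09 log2 units in PEN2 (adjusted p = 3.1e-15). Both types lay above CB, at 2624 to 3280 CPM. The metabotropic receptor GABA-B-R3 rose by 5.03 ± 1.23 log2 units (adjusted p = 0.0027) at low levels, 29.9 ± 28.2 CPM in PEN2 and 0.670 ± 1.16 CPM in R4d. Summed per sample entry its log2 fold change was 5.38 and it was not called (adjusted p = 0.053). The other GABA receptor genes were not called: Lcch3 had 133 ± 66 CPM in PEN2 and 75.3 ± 22.8 CPM in R4d, GABA-B-R1 had 114 ± 73 CPM in PEN2 and 75.9 ± 30.1 CPM in R4d, and GABA-B-R2 had 74.3 ± 49.3 CPM in PEN2 and 69.6 ± 19.7 CPM in R4d. Grd and CG8916 had too few counts to be tested, at means of 15.3 and 2.79 CPM in PEN2 and 0.692 and 3.43 CPM in R4d.

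Of 8 glutamate receptor genes tested, 5 rose in PEN2 and none fell (median log2 fold change 5.01). GluClalpha, the glutamate-gated chloride channel, had 296, 595 and 871 CPM in PEN2, against 0, 8.07 and 45.5 CPM in R4d. It rose without overlap by 5.22 ± 0.49 log2 units (adjusted p = 8.6e-10). The metabotropic receptor mGluR had 118 ± 73 CPM in PEN2 and 0.371 ± 0.983 CPM in R4d (log2 fold change 7.56 ± 0.86, adjusted p = 4.2e-08). GluRIA, an AMPA-type subunit, had 45.2 ± 20.8 CPM in PEN2 and 0.138 ± 0.366 CPM in R4d (log2 fold change 7.05 ± 0.98, adjusted p = 1.4e-06). The remaining 8 of the 16 glutamate receptor genes measured were too low to be tested. Without the libraries of Sample 15, or without those of Sample 16, 3 rose, and with spike-in scaling 5 rose and 3 fell.

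All 3 dopamine receptor genes tested were higher in PEN2. Dop2R, the receptor of the D2 type, had 223, 434 and 930 CPM in PEN2, against 0, 0 and 42.1 CPM in R4d. DopEcR, which binds dopamine and ecdysteroids, had 236, 582 and 1165 CPM in PEN2, against 0, 6.07 and 109 CPM in R4d. Dop1R1, of the D1 type, had 218, 442 and 824 CPM in PEN2, against 109, 131 and 194 CPM in R4d. None of the 3 overlapped between the types, and the log2 fold changes were 5.76 ± 0.76 for Dop2R, 4.79 ± 0.65 for DopEcR and 1.56 ± 0.26 for Dop1R1 (adjusted p of 5.4e-07, 1.0e-06 and 2.6e-05). Relative to spike-ins the direction of Dop1R1 turned (-0.46, adjusted p = 0.14). Dop1R2 was too low to be tested, with counts in 7 of 14 PEN2 libraries and none in R4d.

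Octopamine, tyramine and serotonin receptors were split between the types. Oamb, an alpha-type octopamine receptor, had 200.1 ± 72.9 CPM in PEN2 and 846 ± 150 CPM in R4d and fell without overlap by 2.20 ± 0.21 log2 units (adjusted p = 1.7e-09). Octalpha2R fell by 4.54 ± 0.70 log2 units (adjusted p = 7.0e-06), with 0, 4.31 and 191 CPM in PEN2, against 435, 556 and 795 CPM in R4d. Oct-TyrR had 63.6 ± 72.9 CPM in PEN2, with counts in 10 of 14 libraries, and none in R4d, at least 158-fold higher in PEN2. TyrR rose as well (5.13 ± 1.29, adjusted p = 0.0035), at 17.4 ± 15.5 CPM in PEN2 and 0.285 ± 0.755 CPM in R4d. Summed per sample entry its log2 fold change was 5.85 and it was not called (adjusted p = 0.16). Of the serotonin receptors, 5-HT1A rose to 145 ± 90 CPM in PEN2, against 7.88 ± 12.0 CPM in R4d. Of the 4 serotonin receptors tested, 5-HT1B was not called (1.60 ± 1.09, adjusted p = 0.38), at a mean of 42.8 CPM in PEN2 and 12.8 CPM in R4d. Both 5-HT7 and 5-HT2B fell: 5-HT7 had 89.6 ± 48.7 CPM in PEN2 and 536 ± 218 CPM in R4d, and 5-HT2B had 9.21 ± 22.1 CPM in PEN2 and 108 ± 26 CPM in R4d. The log2 fold changes were 4.04 ± 0.89 for 5-HT1A, -2.69 ± 0.38 for 5-HT7 and -3.66 ± 1.00 for 5-HT2B (adjusted p of 8.3e-04, 1.5e-06 and 0.0072). Of 9 peptide receptors tested, 2 rose and none fell, a share called near the 19.8% of all genes tested. With spike-in scaling 2 rose and 4 fell. PK2-R1, a pyrokinin receptor, had 38.7 ± 31.4 CPM in PEN2 and none in R4d, at least 98.0-fold higher in PEN2, and TrissinR had 33.2 ± 32.8 CPM in PEN2 and none in R4d, at least 85.0-fold higher. With the PEN2 libraries of a single sample entry, GABA-B-R3, Oct-TyrR, TyrR, PK2-R1 and TrissinR had too few counts to be tested. TyrR could be tested in only 27 of the 36 alternatives.

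**Figure D3:**
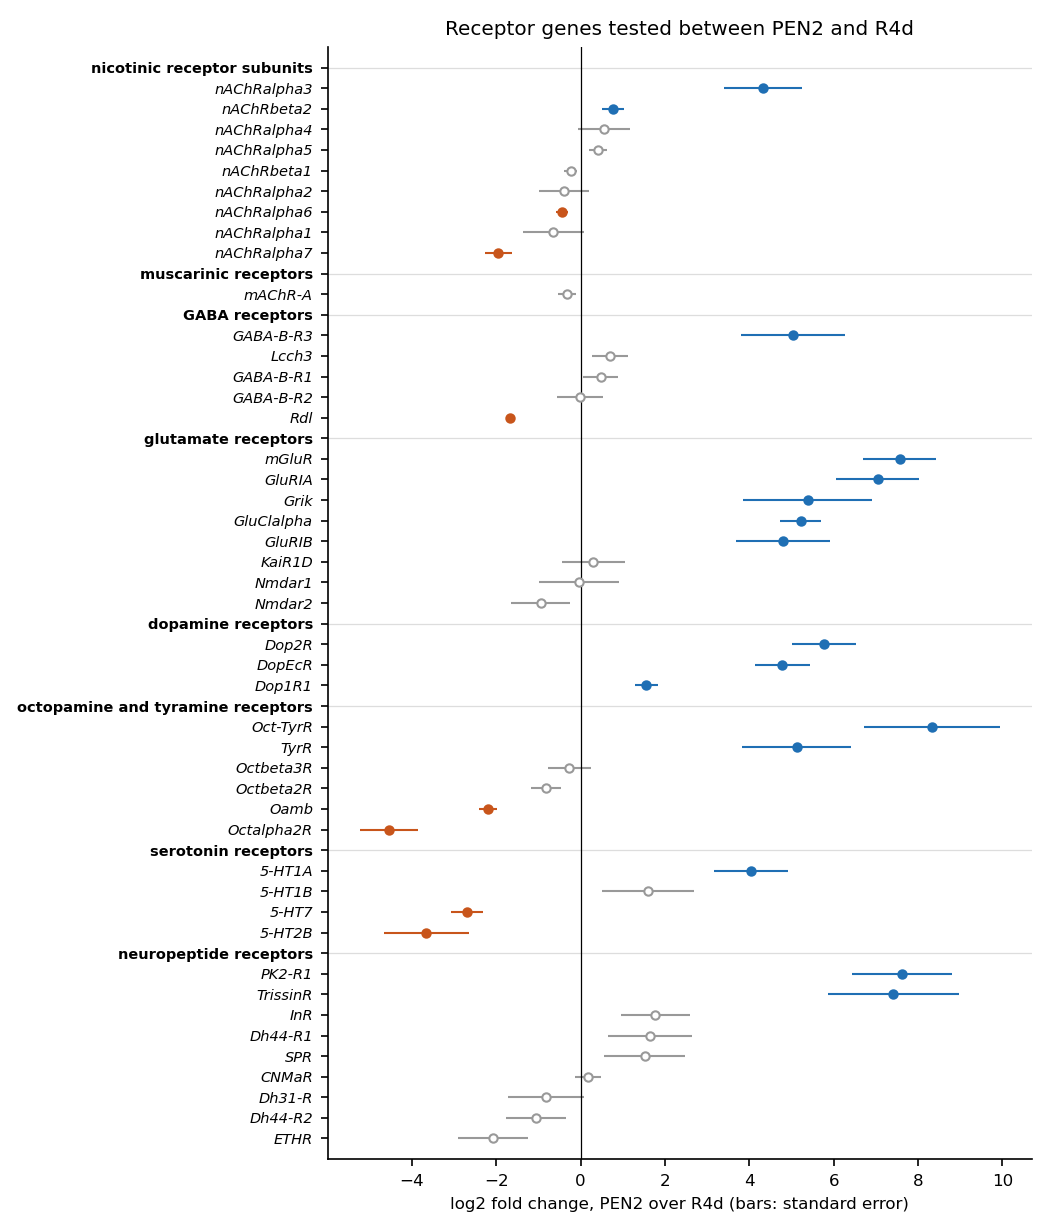
Log2 fold change of PEN2 over R4d with its standard error (x axis) for each receptor gene tested (y axis), grouped by ligand, with filled points for genes called at an adjusted p under 0.05 (blue higher in PEN2, orange lower) and open points for the others. The 3 dopamine receptors and 5 of the 8 glutamate receptors lie to the right of 0, while Rdl, Oamb, Octalpha2R, 5-HT7 and 5-HT2B lie to the left.

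Among genes of excitability, 6 of 15 potassium channel genes tested rose in PEN2 and none fell, beside 10.1% of all genes tested that rose. With spike-in scaling the balance of this list turned, to 1 higher and 9 lower. Shawl, a channel of the Shaw type, had 28.6, 99.7 and 248 CPM in PEN2, against 0 in every R4d library, at least 258-fold higher in PEN2. Hk, the beta subunit of Shaker channels, had 1156, 1445 and 1728 CPM in PEN2, against 126, 230 and 429 CPM in R4d, and rose by 2.44 ± 0.19 log2 units (adjusted p = 2.1e-11). Sh itself had 4122, 4367 and 5001 CPM in PEN2, against 1460, 1787 and 2373 CPM in R4d, a rise of 1.12 ± 0.10 log2 units (adjusted p = 3.0e-10). Neither overlapped between the types. Relative to spike-ins Hk was not called (0.43, adjusted p = 0.064) and Sh turned to -0.92 (adjusted p = 1.2e-05).

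Of 15 sodium, calcium and cation channel genes tested, 3 rose and 1 fell, a share called near the 19.8% of all genes tested. With spike-in scaling none rose and 11 fell. Ca-alpha1T, the T-type calcium channel, had 375, 695 and 1011 CPM in PEN2, against 64.1, 103 and 155 CPM in R4d, and rose by 2.62 ± 0.24 log2 units (adjusted p = 3.7e-10). Teh1, an auxiliary subunit of sodium channels, rose by 2.49 ± 0.42 log2 units (adjusted p = 3.0e-05) and Ih, the hyperpolarization-activated cation channel, by 1.24 ± 0.18 (adjusted p = 2.0e-06). The synaptic calcium channel cac fell by 1.04 ± 0.20 log2 units (adjusted p = 1.8e-04), with 363 ± 121 CPM in PEN2 and 687 ± 105 CPM in R4d, and had a log2 fold change of -0.98, not called, when counts were summed per sample entry (adjusted p = 0.13). Relative to spike-ins neither Ca-alpha1T nor Teh1 was called (adjusted p of 0.061 and 0.30), and Ih turned to -0.79 (adjusted p = 0.0017). The gap junction gene shakB, the only innexin tested, rose by 2.20 ± 0.36 log2 units (adjusted p = 1.6e-05, and 0.69 with spike-in scaling), at 376 ± 187 CPM in PEN2 and 76.2 ± 47.5 CPM in R4d.

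Of 23 genes of vesicle release and the active zone tested, 6 rose and 3 fell, beside 10.1% and 9.74% of all genes tested. With spike-in scaling 3 rose and 19 fell. Rim, a scaffold of the active zone, had 1842, 2477 and 3160 CPM in PEN2, against 151, 220 and 343 CPM in R4d, and rose by 3.29 ± 0.18 log2 units (adjusted p = 5.8e-15). Frq1, a calcium sensor, had 1191 ± 248 CPM in PEN2 and 28.2 ± 44.2 CPM in R4d (log2 fold change 5.30 ± 0.72, adjusted p = 8.5e-07). Snap25, a SNARE protein, rose by 2.24 ± 0.18 log2 units (adjusted p = 2.8e-11, and 0.29 with spike-in scaling). The core active zone protein brp had 315, 492 and 891 CPM in PEN2, against 1001, 1160 and 1716 CPM in R4d, and fell by 1.37 ± 0.19 log2 units (adjusted p = 9.9e-07). Complexin (cpx), the fusion clamp, fell by 1.35 ± 0.18 (adjusted p = 4.6e-07), and Sytbeta, a synaptotagmin, by 2.64 ± 0.56 (adjusted p = 6.2e-04).

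The dpr and DIP genes encode immunoglobulin proteins that bind each other across synaptic partners in the fly visual system, and 15 of 21 tested rose in PEN2 while 2 fell (median log2 fold change 3.90, against -0.04 over all genes tested). dpr8 had 295, 471 and 646 CPM in PEN2, against 0, 0 and 18.4 CPM in R4d, and rose by 7.18 ± 0.64 log2 units (adjusted p = 2.6e-10). DIP-beta had 53.3, 130 and 244 CPM in PEN2, against 0, 6.79 and 7.99 CPM in R4d (log2 fold change 4.40 ± 0.57, adjusted p = 4.6e-07). dpr11 rose by 6.08 ± 0.80 log2 units (adjusted p = 5.2e-07). The genes that fell were dpr12, with 223 ± 69 CPM in PEN2 and 540 ± 153 CPM in R4d (-1.39 ± 0.22, adjusted p = 8.5e-06), and dpr10, with 21.1 ± 21.1 CPM in PEN2 and 92.3 ± 26.0 CPM in R4d (-2.21 ± 0.75, adjusted p = 0.034). Summed per sample entry the log2 fold changes were -1.35 for dpr12 and -2.23 for dpr10, and neither was called (adjusted p of 0.052 and 0.17). dpr10 lost its call when any of R4d libraries 1, 3, 4, 5 or 6 was left out (adjusted p of 0.051 to 0.071). With spike-in scaling 10 dpr and DIP genes rose and 5 fell.

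The beat and side genes encode receptors and ligands first studied in motor axon guidance, and 13 of 20 tested rose in PEN2 and none fell (median log2 fold change 4.11). beat-VI had 393.9, 577 and 1151 CPM in PEN2, against 15.98, 27.2 and 48.7 CPM in R4d, and rose by 4.41 ± 0.29 log2 units (adjusted p = 5.5e-13). beat-IV rose by 4.39 ± 0.56 log2 units (adjusted p = 3.8e-07). side-V had 26.4, 103 and 298 CPM in PEN2, against 0 in every R4d library, at least 292-fold higher in PEN2. With spike-in scaling 11 of these genes rose and 1 fell. A gene was tested only with enough counts in at least 7 libraries, so these counts and medians describe such genes, 21 of 32 and 20 of 22 measured. A gene present in PEN2 alone could pass with 7 of the 14 PEN2 libraries, but a gene present in R4d alone needed all 7 R4d libraries. Here as for other lists, this filter favours uneven genes of PEN2 over uneven genes of R4d.

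**Figure D4:**
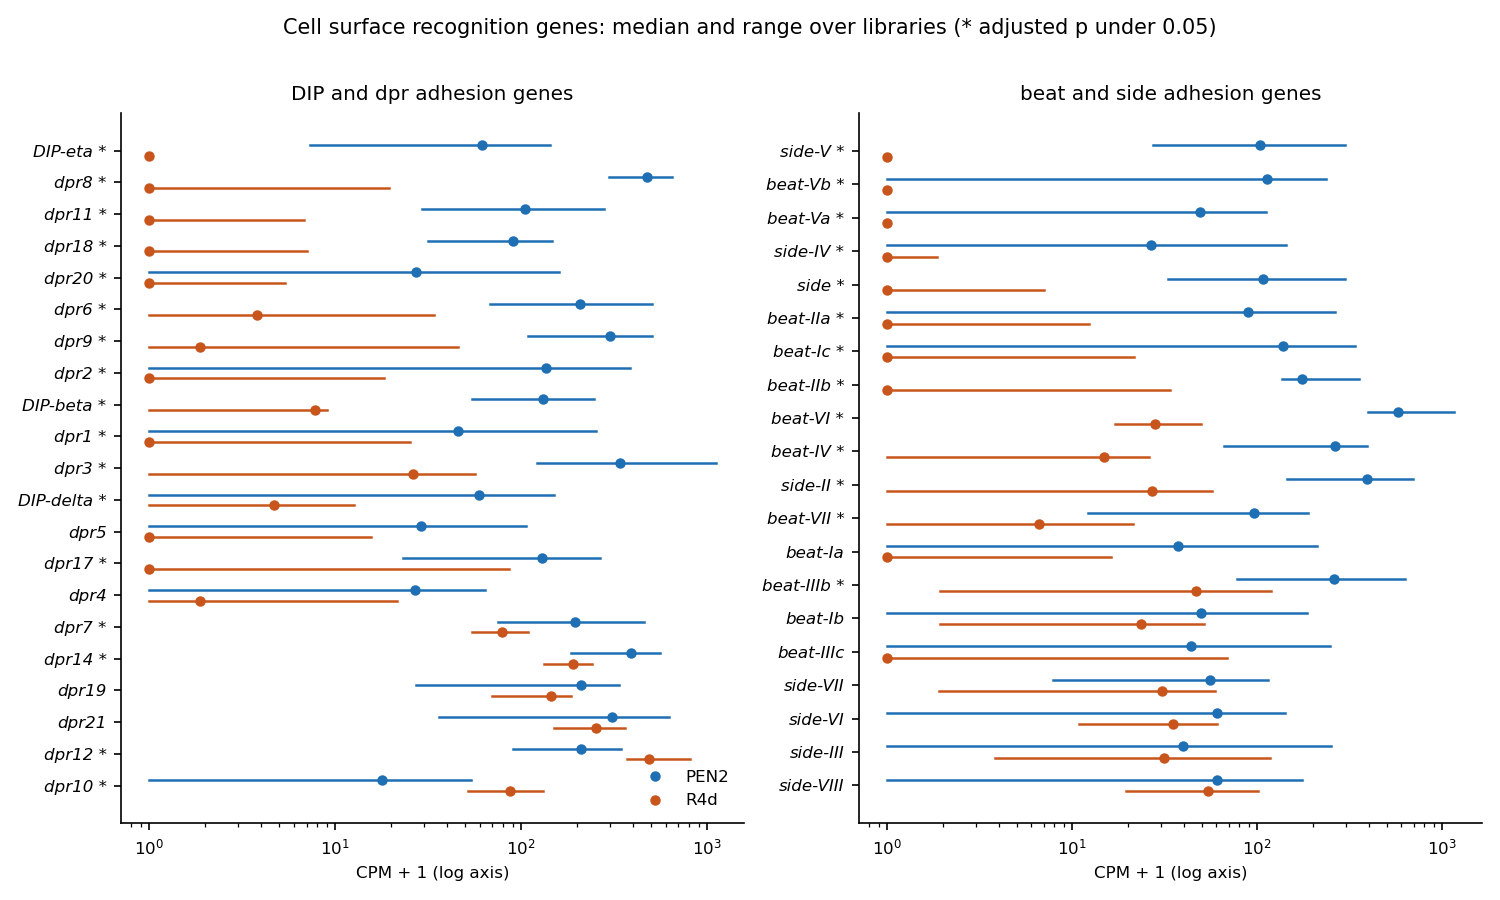
CPM plus 1 on a log axis for each dpr and DIP gene tested (left) and each beat and side gene tested (right), with points at the median and lines over the range of the PEN2 (blue) and R4d (orange) libraries, and asterisks at genes with an adjusted p under 0.05. dpr8, DIP-beta, beat-VI and side-V are among the genes whose PEN2 range lies wholly above the R4d range, and dpr12 is a gene whose R4d range lies wholly above.

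Of 42 other surface genes of wiring and guidance, 22 rose and 2 fell (median log2 fold change 1.33). Without the libraries of Sample 15, and likewise summed per sample entry, 13 rose. With spike-in scaling the balance turned, to 9 higher and 17 lower. Nlg3, a neuroligin, had 501, 767 and 1388 CPM in PEN2, against 0, 0 and 3.59 CPM in R4d, a log2 fold change of 10.01 ± 0.51 (adjusted p = 1.2e-15). Dscam2, an immunoglobulin protein of self-avoidance, had 442 ± 242 CPM in PEN2 and 44.0 ± 18.3 CPM in R4d (3.22 ± 0.36, adjusted p = 3.3e-08), and the leucine-rich repeat gene haf rose by 2.36 ± 0.19 (adjusted p = 5.5e-11, and 0.15 with spike-in scaling). Fas2, a cell adhesion molecule of axon bundles, had 0, 48.5 and 151 CPM in PEN2, against 519, 583 and 846 CPM in R4d, and fell without overlap by 3.81 ± 0.49 log2 units (adjusted p = 3.1e-07). kek2 fell by 2.17 ± 0.62 (adjusted p = 0.0100).

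Of 13 homeobox genes tested, 6 rose and 3 fell, and without the libraries of Sample 15, 3 rose and 4 fell. With spike-in scaling 4 rose and 6 fell. Besides Optix, ct (cut) had 315, 957 and 1735 CPM in PEN2, against 0 in every R4d library, and Rx had 51.4, 116 and 308 CPM in PEN2, against 0 in every R4d library, so that they were at least 2456-fold and 356-fold higher in PEN2. The Iroquois genes ara and caup went the other way. ara was at 0 in every PEN2 library, against 332, 410 and 563 CPM in R4d, at least 922-fold lower in PEN2, and caup had 1.63 ± 4.98 CPM in PEN2 and 413 ± 83 CPM in R4d (-7.86 ± 0.63, adjusted p = 3.2e-11). Dr, a homeobox gene of the msh family, had 2.29 ± 8.55 CPM in PEN2 and 107 ± 14 CPM in R4d (-5.59 ± 0.98, adjusted p = 4.5e-05).

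Of 29 other transcription factors tested, 16 rose and 6 fell, beside 10.1% and 9.74% of all genes tested. With spike-in scaling the balance turned, to 9 higher and 13 lower. run, a Runt factor, had 68.9, 535 and 1011 CPM in PEN2, against 0, 0 and 14.97 CPM in R4d (log2 fold change 7.70 ± 0.70, adjusted p = 3.9e-10). Sox102F, of the SoxD group, had 252 ± 165 CPM in PEN2 and 0.128 ± 0.339 CPM in R4d (9.51 ± 0.66, adjusted p = 1.2e-12). The zinc finger gene jim rose by 1.96 ± 0.14 (adjusted p = 1.9e-12), a direction that turned with spike-in scaling (-0.09, adjusted p = 0.60). Sox21b had 0.146 ± 0.548 CPM in PEN2 and 244 ± 46 CPM in R4d (-9.54 ± 0.54, adjusted p = 1.5e-14). Further regulators were at 0 in every PEN2 library or nearly so: the GATA factor grn (129 to 265 CPM in R4d, at least 449-fold lower in PEN2) and the basic helix-loop-helix factor HLH3B (168 to 382 CPM in R4d, at least 531-fold lower in PEN2) were at 0, and the kinase gene Pka-C3 had 0.143 ± 0.534 CPM in PEN2 and 434 ± 104 CPM in R4d (-10.37 ± 0.43, adjusted p = 9.9e-18).

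The remaining genes among the 15 largest rises were tey (743 ± 440 CPM in PEN2 and 0.128 ± 0.339 CPM in R4d), the ligand Wnt4 (363 ± 155 CPM in PEN2), CG33543 (304 ± 192 CPM), CG10384 (208 ± 105 CPM), the Pvr adaptor PVRAP (170 ± 156 CPM), the adhesion gene ed (149 ± 55 CPM) and CG46301 (137 ± 71 CPM). Apart from tey, each was at 0 in every R4d library, and all had counts in every PEN2 library and in every CB library. The lower bounds ran from 344-fold for CG46301 to 904-fold for Wnt4. With the PEN2 libraries of a single sample entry, PVRAP had too few counts to be tested.

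The largest fall was that of CG14687, a gene without an assigned name. It had 0, 0 and 4.71 CPM in PEN2, against 6563, 7379 and 7825 CPM in R4d, while CB libraries held 75.6 to 119 CPM, and its log2 fold change was -13.51 ± 0.28 (adjusted p = 2.9e-25). Some other genes among the 15 largest falls were at or near 0 in CB as well as in PEN2. CG14342 had 0 in every PEN2 library, against 182 to 236 CPM in R4d, and 0 in every CB library. CG32669 had 0 in every PEN2 library, against 53.3 to 156 CPM in R4d, and 0 in every CB library. CG14354 (238 to 387.6 CPM in R4d), CG12836 (72.9 to 179 CPM), CG18598 (146 to 451 CPM) and Mcm5 (104 to 306 CPM), a subunit of the replicative helicase, had at most 2.05 CPM in a PEN2 library and at most 8.81 CPM in a CB library. The noncoding lncRNA:CR32111 was at 0 in every PEN2 library, against 113 to 151 CPM in R4d, and reached 32.1 CPM in CB, with counts in 6 of the 8 CB libraries.

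Some of these genes are neighbours in the RefSeq annotation of the release 6 assembly. ara, caup and lncRNA:CR32111 follow each other, D and Sox21b are separated by a single noncoding RNA gene, and Mcm5 lies next to CG14687. Of the 30 genes with the largest changes, 12 overlap another annotated gene, among them Dh44, Wnt4, Nlg3, Poxn, CG18598 and CG32669. Whether the authors' counts used the strand is not given in the sources used here, so reads from overlapping genes may not have been separated.

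Signalling genes downstream of receptors moved in both directions. Of 9 genes of phospholipase C and diacylglycerol signalling, 4 rose and 2 fell, and with spike-in scaling 4 rose and 5 fell. rdgA, a diacylglycerol kinase, had 766, 1547 and 2499 CPM in PEN2, against 0, 0.970 and 19.4 CPM in R4d, and rose by 8.71 ± 0.56 log2 units (adjusted p = 2.8e-13). norpA, a phospholipase C, had 746 ± 137 CPM in PEN2 and 67.3 ± 37.0 CPM in R4d (3.34 ± 0.30, adjusted p = 3.6e-10). Pkc53E, a protein kinase C, had 865 ± 237 CPM in PEN2 and 102 ± 19 CPM in R4d (2.97 ± 0.21, adjusted p = 2.8e-12). Of these genes, rdgA and norpA are known best from phototransduction. The summed level of the photoreceptor markers was at most 69.7 CPM in a PEN2 library and 29.5 CPM in an R4d library, and at least 2182 CPM in a CB library.

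Of 18 genes of cyclic AMP signalling, 4 rose and 6 fell, and with spike-in scaling 2 rose and 11 fell. Pde1c, a phosphodiesterase driven by calcium and calmodulin, had 485, 732 and 1131 CPM in PEN2, against 0, 6.28 and 12.6 CPM in R4d, and rose by 6.79 ± 0.44 log2 units (adjusted p = 4.0e-13). Epac, an exchange factor that binds cyclic AMP, rose to 60.5 ± 68.9 CPM in PEN2, against 0.134 ± 0.354 CPM in R4d (7.46 ± 1.29, adjusted p = 3.7e-05). With the PEN2 libraries of a single sample entry, Epac had too few counts to be tested. Galphao rose by 1.80 ± 0.15 (adjusted p = 5.6e-11), a direction that turned with spike-in scaling (-0.23, adjusted p = 0.29). Besides Pka-C3, Pde9 fell by 1.94 ± 0.15 (adjusted p = 1.4e-11), at 684 ± 175 CPM in PEN2 and 2424 ± 328 CPM in R4d, and the regulatory subunit Pka-R2 by 1.74 ± 0.20 (adjusted p = 4.8e-08).

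Of 7 activity-regulated genes tested, 3 rose in PEN2 and none fell, and with spike-in scaling 2 rose and 3 fell. The nuclear receptor Hr38 had 218, 768 and 1718 CPM in PEN2, against 19.4, 68.3 and 106 CPM in R4d, and rose without overlap by 3.70 ± 0.40 log2 units (adjusted p = 1.7e-08). sr, an Egr-type zinc finger factor, had 302 ± 154 CPM in PEN2 and 32.1 ± 32.5 CPM in R4d (3.11 ± 0.53, adjusted p = 2.8e-05). kay, the fly Fos, was called (1.95 ± 0.64, adjusted p = 0.027) but lost its call, among other alternatives, on leaving out library 1 of Sample 15 or any of R4d libraries 1, 3, 4, 5 and 7 (adjusted p of 0.052 to 0.065), and its direction turned with spike-in scaling. Of 14 heat shock genes tested, 2 rose and 1 fell, a share called near the 19.8% of all genes tested. With spike-in scaling 1 rose and 10 fell. Hsp67Bc had 281 ± 145 CPM in PEN2 and 10.2 ± 11.8 CPM in R4d (4.63 ± 0.73, adjusted p = 1.1e-05), and Hsp23 had 977 ± 740 CPM in PEN2 and 187 ± 104 CPM in R4d (2.28 ± 0.49, adjusted p = 6.3e-04, and 0.53 with spike-in scaling). The part of the sort or dissociation in these levels was not tested.

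Of 19 neuronal RNA-binding protein genes, 9 rose and 3 fell, and summed per sample entry 4 rose and 2 fell. With spike-in scaling the balance turned, to 3 higher and 15 lower. Rbfox1, a splicing factor, had 1229, 1967 and 2617 CPM in PEN2, against 119, 186 and 326 CPM in R4d, and rose by 3.06 ± 0.19 log2 units (adjusted p = 1.6e-13). orb2, a regulator of translation at synapses, rose by 2.94 ± 0.28 (adjusted p = 1.7e-09) and msi by 3.99 ± 0.55 (adjusted p = 1.1e-06). The translational repressor pum had 1383, 2207 and 3056 CPM in PEN2, against 4966, 5883 and 6624 CPM in R4d, and fell by 1.55 ± 0.12 (adjusted p = 3.4e-11), and mub fell by 2.68 ± 0.22 (adjusted p = 4.7e-11).

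Of 78 ribosomal protein genes tested, 67 fell in PEN2 and none rose (median log2 fold change -1.09). Summed per sample entry, 16 fell. They took 4.06% to 6.19% of the gene counts of a PEN2 library, against 8.56% to 10.8% in R4d and 3.65% to 5.07% in CB. RpL10Ab had 531 ± 129 CPM in PEN2 and 1732 ± 139 CPM in R4d (-1.82 ± 0.15, adjusted p = 4.7e-11), RpS27A fell by 1.80 ± 0.15 and RpL15 by 1.53 ± 0.13 (adjusted p = 6.6e-11 and 6.3e-11). Of 13 genes of the mitochondrial genome tested, 1 rose and 2 fell, a share called near the 19.8% of all genes tested. Without the libraries of Sample 15, 1 rose and 8 fell. mt:ATPase6 fell by 0.84 ± 0.16 log2 units (adjusted p = 1.1e-04) and mt:CoII by 0.68 ± 0.19 (adjusted p = 0.0080). The mitochondrial ribosomal RNA mt:lrRNA rose by 1.10 ± 0.09 log2 units (adjusted p = 5.3e-11), which turned with spike-in scaling (-0.90, adjusted p = 9.2e-08). The summed share of the mitochondrial genome, mt:lrRNA included, was 4.23% to 5.90% in a PEN2 library (mean 5.16%), against 2.62% to 4.19% in R4d (mean 3.63%). Of all gene counts, mt:lrRNA alone took 3.36% in PEN2 and 1.43% in R4d. The higher share in PEN2 was thus that of mt:lrRNA, while the median log2 fold change of the 13 genes tested was -0.48. Depth and genes detected were lower in PEN2, like the ribosomal protein share. After R4d counts were thinned to the median PEN2 depth, 5986 to 6204 genes had a count in an R4d library. The fit to these thinned counts gave 957 calls, and 929 of the 970 calls were kept in the same direction. RpL10Ab, RpS27A, RpL15 and mt:lrRNA also kept their calls. The part of genes detected, apart from depth, was not tested.

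**Figure D5:**
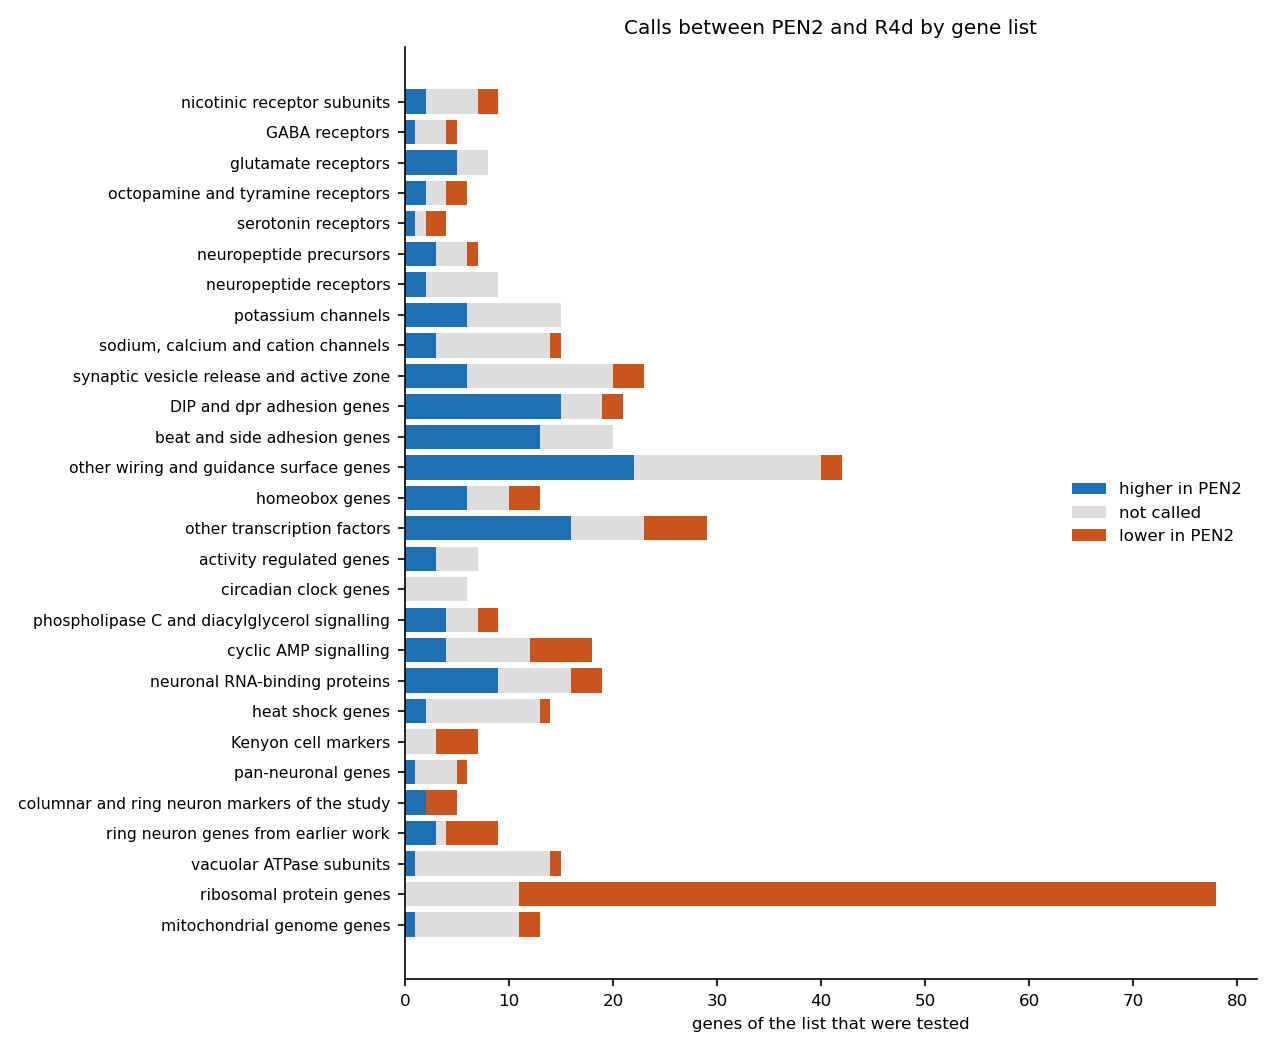
Number of genes tested in each gene list with at least 4 such genes (x axis), split into genes called higher in PEN2 (blue), not called (grey) and called lower in PEN2 (orange). The adhesion lists are mostly blue, and 67 of 78 ribosomal protein genes are orange.

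Marker lists of other cells gave different levels. The 20 glia markers summed to 80.0 to 622 CPM in PEN2 libraries, against 48.4 to 97.1 CPM in R4d libraries and 7942 to 8740 CPM in CB libraries, and 7 of them were at 0 in every PEN2 library and 8 in every R4d library. Most of the PEN2 sum came from nrv2, at a mean of 107 CPM in PEN2 and 19.9 CPM in R4d, and Ntan1, at 81.1 CPM in PEN2 and 33.9 CPM in R4d. Neither was called (adjusted p of 0.069 and 0.10). The glial regulator repo averaged 0.168 CPM in PEN2 and was at 0 in R4d. The fat body and hemocyte list summed to 0 to 530.2 CPM in PEN2 libraries, against 21.0 to 67.9 CPM in R4d libraries, while CB libraries held 612 to 828 CPM. Almost all of the PEN2 sum came from Pxn, an extracellular matrix peroxidase, which was called higher in PEN2 (2.61 ± 0.58, adjusted p = 9.0e-04, and 0.30 with spike-in scaling). The muscle list summed to 87.1 to 311 CPM in PEN2 libraries, against 126 to 333 CPM in R4d libraries and 170 to 353 CPM in CB libraries. The median sums were 193 CPM in PEN2, 193 CPM in R4d and 273 CPM in CB. The tropomyosin gene Tm1 averaged 188 CPM in PEN2, 186 CPM in R4d and 156 CPM in CB. Nearly all of the sum thus came from Tm1 in both types, but not in CB.

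The summed level of genes of Kenyon cells, the intrinsic neurons of the mushroom body, lay above CB in both types. These genes summed to 4101 to 6813 CPM in PEN2 libraries, against 9361 to 13287 CPM in R4d libraries and a median of 3398 CPM in CB. Of the 11 genes, 7 were tested, of which none rose and 4 fell in PEN2. mamo, a zinc finger factor, averaged 2898 CPM in PEN2 and 6236 CPM in R4d and fell by 1.22 ± 0.15 log2 units (adjusted p = 1.0e-07). The others that fell were mub, Fas2 and Pka-C1, the catalytic subunit of protein kinase A (-0.65 ± 0.19, adjusted p = 0.012). dnc, a cyclic AMP phosphodiesterase, was not called, at 925 CPM in PEN2 and 870 CPM in R4d (adjusted p = 0.97). Not every gene followed the sum. In PEN2, mub averaged 367 CPM and Fas2 49.0 CPM, below their CB means of 536 and 111 CPM. The PEN2 means of mamo and dnc lay above their CB means of 675 and 369 CPM. None of the 11 was at 0 in every PEN2 library, and 3 were at 0 in every R4d library (Dop1R2, sNPF and ey). The part of such cells in the differences was not tested.

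Both sample entries of PEN2 carried the same driver and cell number. Of the 17 genes that differed between them, the ribosomal protein genes RpL36, RpS20, RpS28b, RpL21, RpL27A and RpS12 were all lower in Sample 16. RpL27A averaged 145 CPM in Sample 16, against 433 CPM in Sample 15, and RpL36 averaged 599 CPM in Sample 16, against 1096 CPM in Sample 15. The mitochondrial genes mt:ND5 and mt:ND6 were lower in Sample 16 as well, and Syt4, a synaptotagmin, and the ferritin gene Fer1HCH were higher. In both entries the ribosomal protein share lay below that of every R4d library, at 4.06% to 4.94% in Sample 16 and 4.99% to 6.19% in Sample 15.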

How the data were processed

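Per the labels, RNA was sequenced from low-cell libraries of sorted PEN2 and R4d neurons and from diluted central brain RNA. The authors deposited whole-number counts per gene and library. Per the submitters' processing notes, STARsolo and edgeR were used. The genome build, the annotation and whether counts were of molecular identifiers are not given in the sources used here. Genes alone entered library sizes, leaving out spike-ins and transgenes.

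PEN2 was compared with R4d using edgeR 4.0.16 in R 4.3.3 (TMM scaling, filterByExpr with a minimum count of 10, quasi-likelihood test). Both types share a single estimate of the spread of each gene. Adjusted p-values are Benjamini-Hochberg values over all genes tested, two-sided, and genes were called under 0.05. SE is an approximate standard error of the log2 fold change, its absolute value divided by the square root of the F statistic of the test. The same steps were run on simulated data with the same spread in both types. Such data cannot show how the test behaves where the types differ in spread. Bounds use a floor of 3 counts over a group and cover counting error only.

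The gene lists and the genes named were chosen with earlier results of these data known. The rule took the 15 largest called changes per direction with non-overlapping libraries and a mean of at least 20 CPM in the higher type, and from each of 41 lists the members with the smallest p, up to 3 per direction, and the one with the largest. DAT, Pdf, NPF, the members of the marker lists of other cells given by level and the genes named between PEN2 entries were chosen after their values were seen. Alternatives included DESeq2 1.42.0, limma 3.58.1, other scalings and filters, summed counts and libraries left out. Spike-in scaling and limma-voom with a variance per type were added after seeing the data. Bulk and single-cell tables were not used here.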

Additional observations from a re-analysis of the deposited data

Results flagged for a closer look

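A single R4d library stood apart from the other 6 in 8 of the 113 named genes examined, by the gap to its nearest neighbour relative to the range of all 7. Chance alone gives about 1 such group in 20. Library 3 was high in 5-HT7 at 1004 CPM (356 to 555 CPM in the others) and in 5-HT2B at 164 CPM (80.9 to 112 CPM), and low in Teh1 at 9.69 CPM (43.3 to 66.4 CPM). Library 1 was high in kek2 at 384 CPM (135 to 236 CPM) and low in lncRNA:Hsromega at 4231 CPM (5025 to 5597 CPM). Library 5 was high in DopEcR at 109 CPM (0 to 11.6 CPM), library 2 in sr at 102 CPM (0.969 to 29.9 CPM) and library 4 in Hsp23 at 414 CPM (114 to 186 CPM). The calls of DopEcR, 5-HT7, 5-HT2B, Teh1, kek2, sr and Hsp23 were kept when any single library was left out.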

How the results depend on the processing

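The count of 970 calls stayed within 1.5 times under upper-quartile scaling, no scaling and totals without ribosomal and mitochondrial genes. It also did with a filter of 10 CPM, thinned R4d counts, DESeq2 (1275 calls) and central brain libraries in the fit (1300). With single libraries left out in turn it was 874 to 977. Without the libraries of Sample 15 it was 1010 (390 higher and 620 lower in PEN2), against 494 and 476 with all libraries. Without those of Sample 16 it was 931 (448 and 483). It was 2029 (921 higher and 1108 lower in PEN2) with no filter, 426 (256 and 170) against a log2 fold change of 1, 508 (284 and 224) with counts summed per sample entry, 2060 (593 and 1467) with limma-voom and 3583 (173 and 3410) with spike-in scaling, which shifts every gene by construction. Between PEN2 entries, 40 genes were called with no filter, 0 by edgeR against a log2 fold change of 1 (32 at an unadjusted p under 0.05) and 65 with DESeq2. The library numbers shared by both types did not pair the libraries (correlations of -0.026 to 0.020), and the replicate block gave 1028 calls (439 higher and 589 lower).

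With spike-in scaling the log2 fold change turned to -1.40 for Lcch3, -1.63 for GABA-B-R1, -0.46 for Dop1R1, -1.50 for AstC, -0.92 for Sh, -0.79 for Ih, -0.0938 for jim, -0.0354 for kay, -0.23 for Galphao and -0.90 for mt:lrRNA. AstC, at 0.04, also turned with upper-quartile scaling (-0.0032), totals without ribosomal and mitochondrial genes (-0.0435), no filter (-0.0478), a filter of 10 CPM (-0.0020), DESeq2 (-1.65), the replicate block (-2.51), limma-voom (-4.15), without the libraries of Sample 16 (-3.58, against 1.144 without Sample 15) and with some single libraries left out (-1.75 to 0.15 over all). The cause was not tested. Of 115 genes given with values, 83 kept their direction and call in every alternative that could test them, and 98 in every one but spike-in scaling. The shallower PEN2 libraries limit what could be tested there.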
